A study of Mus musculus with 6 samples.

Results

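The enzymes that lengthen and unsaturate fatty acids in the liver were followed through 10 genes, Elovl1, Elovl2, Elovl3, Elovl5, Elovl6, Elovl7, Fads1, Fads2, Fads3 and Scd2. They were chosen by name from the 54532 genes of the deposited count table, and all 10 were found there once. The data are 6 bulk RNA sequencing libraries from livers of male mice, 3 labelled wild type (WT replicates 1, 2 and 3) and 3 labelled Trem2-deficient (KO replicates 4, 5 and 6), the WT mice being littermates. All were fed a high-fat diet for 8 weeks from 8 weeks of age, so no library stands for a normal diet. Trem2 is a lipid-sensing receptor of macrophages, and the comparison asks how the liver on this diet differs without it. The labels do not say which exons the deletion removed, whether it was confined to a cell type, or whether the libraries came from 6 separate mice. Where 2 libraries share a mouse, a p-value covers the spread among the samples only, which may be technical.

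Fatty acids are lengthened at the endoplasmic reticulum in a cycle whose first, rate-limiting step is carried out by an ELOVL protein, which joins malonyl-CoA to an acyl-CoA. Each ELOVL prefers certain chain lengths and degrees of unsaturation. Desaturases then place double bonds: FADS2 and FADS1 act with ELOVL5 and ELOVL2 to turn dietary linoleic and alpha-linolenic acids into arachidonic, eicosapentaenoic and docosahexaenoic acids, while the stearoyl-CoA desaturases make monounsaturated fatty acids. The liver is a main site of this pathway, and it supplies the fatty acids of triglycerides, phospholipids and lipoproteins.

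Totals lay between 11591021 and 20399361 counts per library. Levels are given in CPM, which are counts scaled for library size and composition. Changes are log2 fold changes, KO over WT, each with its standard error (SE). Trem2 itself had 7, 26 and 26 counts in WT and 9, 6 and 5 in KO replicates. The library labelled WT replicate 1 therefore lay within the KO range, and every direction below rests on the labels alone. Hepatocyte markers took 79287 to 117936 CPM in WT and 79509 to 86170 CPM in KO libraries, and none of the 10 was at 0. Summed marker levels of 3 other cell types did not overlap between the labels: the 11 Kupffer cell genes stood at 141 to 194 CPM in WT and 244 to 323 CPM in KO, the 9 sinusoidal endothelial genes at 185 to 246 and 293 to 439 CPM, and the 10 stellate cell and fibroblast genes at 160 to 191 and 196 to 495 CPM. Those of monocytes and neutrophils, bile duct cells and lymphocytes overlapped. Adipoq, Lep, Plin1 and Retn, which define fat cells, were each highest in KO replicate 5. Adipoq stood at 5.79 CPM there and at 0 to 0.182 CPM in the other libraries, Lep at 2.96 CPM and at 0 in every other library. The whole list of 7 fat cell genes, which the liver in part expresses itself, summed to 20.1 to 106 CPM in WT and 72.6 to 112 CPM in KO libraries. The part of these cells in the results below was not tested, and in bulk tissue fewer cells of a type and less RNA per cell cannot be told apart.

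None of the 10 genes passed the threshold, and Elovl5 was the only one whose KO-labelled values all lay above the WT-labelled ones. Of the 9 that could be tested (all but Elovl7, which had too few counts), 0 had an adjusted p under 0.05 in edgeR's quasi-likelihood test, where 0.0146% of all 13693 genes tested did. At an unadjusted p under 0.05 there was 1 member, Elovl5, against 8.58% of all genes, so the family's share is near the background. Groups did not overlap for 1 of the 9 members, against 13.9% of all genes in either direction and 8.12% with KO higher. Fitted changes were above 0 for 4 members and below 0 for 5, with a median of −0.05, against a median of −0.01 over all genes. DESeq2 and limma-voom also called 0 members, against 1.17% and 0.0073% of all genes. Limma-voom with sample quality weights called 5, but in that fit 29.7% of all genes were called. With fewer libraries more genes separate. Groups did not overlap for 4 members without KO replicate 5 (40.2% of all genes), for 3 without WT replicate 1 (21.2%) and for 2 without WT replicate 2 (34.4%).

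**Figure D1:**
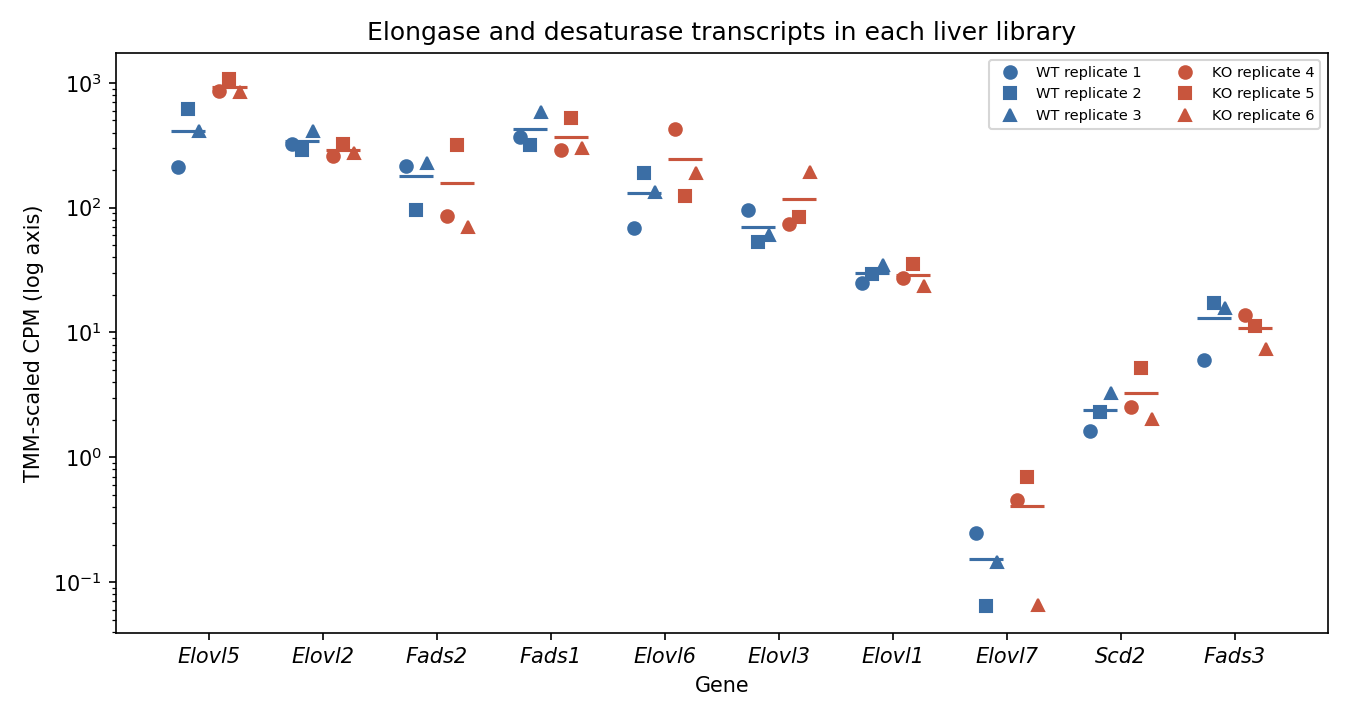
TMM-scaled CPM of the 10 genes in each library on a log axis, WT-labelled in blue and KO-labelled in red, with symbols for replicates and a horizontal line at each group's mean (n = 3). Elovl5 is the gene whose red points, from 840 to 1067 CPM, all lie above the blue ones, from 212 to 617 CPM.

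Elovl5, which lengthens polyunsaturated fatty acids between the desaturation steps of FADS2 and FADS1, had the highest level in CPM of the family in every KO-labelled library. The gene (ENSMUSG00000032349, mm10 chromosome 9, 77917364 to 77984519, plus strand) stood at 212, 617 and 409 CPM in WT replicates 1, 2 and 3, and at 853, 1067 and 840 CPM in KO replicates 4, 5 and 6. The KO-labelled libraries lay closer together than the WT-labelled ones, of which WT replicate 1 was the lowest and WT replicate 2 the highest. The means were 413 ± 203 and 920 ± 127 CPM (SD, n = 3 each), a 2.23-fold difference with a log2 fold change of 1.16 (SE 0.39). It did not pass over all genes, its unadjusted p in edgeR being 0.0177 and its adjusted p 0.478. The exact permutation test, two-sided, gave p = 0.1, which is the smallest that 3 libraries against 3 allow. Without WT replicate 1 the log2 fold change was 0.84 (SE 0.31), and without KO replicate 5, the library with the fat cell transcripts, it was 1.03 (SE 0.42). It was above 0 in all 20 alternative settings, between 0.84 and 1.56.

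The upstream sequence of Elovl5 is shown because it is the member whose groups did not overlap, and that of Elovl2, the elongase of the next steps of the same route, because its levels did not follow Elovl5. Both are the 250 bases before the RefSeq start site in GRCm38.p6, at chr9:77917115-77917364 on the plus strand and chr13:41220404-41220653 on the minus strand. Capitals mark matches to CCAAT, read on either strand, and to the E-box CACGTG, which reads the same on both strands.
Elovl5: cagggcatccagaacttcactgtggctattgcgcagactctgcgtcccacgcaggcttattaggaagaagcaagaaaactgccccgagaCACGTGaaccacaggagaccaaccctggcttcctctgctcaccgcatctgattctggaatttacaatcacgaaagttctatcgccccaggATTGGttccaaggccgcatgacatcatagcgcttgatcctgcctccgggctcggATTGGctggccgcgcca
Elovl2: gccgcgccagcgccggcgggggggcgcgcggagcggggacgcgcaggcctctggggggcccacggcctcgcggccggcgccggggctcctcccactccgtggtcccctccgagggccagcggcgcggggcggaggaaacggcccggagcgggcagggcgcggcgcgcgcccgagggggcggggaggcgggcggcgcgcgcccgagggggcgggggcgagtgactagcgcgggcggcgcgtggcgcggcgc
The Elovl5 window held CCAAT, in reverse, at −71 to −67 and −17 to −13 from the start site, and the E-box at −161 to −156, while the Elovl2 window held neither and was 87.2% G and C against 55.6% for Elovl5. Over the 300 bases around the start (250 before, 50 after), CCAAT was found in 3 of 9 windows of 7 members (Elovl1, Elovl5 and Fads3) and in 37.4% of the 32851 windows of all genes. The E-box, a motif added after the Elovl5 sequence was seen, was found in the Elovl5 window alone of the 9 and in 7.15% of all windows. The sterol response element TCACNCCAC was in none of the 9 windows and in 1.24% of all, and direct repeats of the nuclear receptor half-site AGGTCA with a spacer of 1 or 4 bases were in none and in 0.0396% and 0.0152% of all. A match is a description of these letters only. Elovl3, Fads1 and Scd2 had no window in the RefSeq table used.

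Elovl2, which carries polyunsaturated chains on towards docosahexaenoic acid, varied least in this family together with Elovl1. The gene (ENSMUSG00000021364, chromosome 13, 41182381 to 41220405, minus strand) stood at 324, 292 and 415 CPM in WT replicates 1, 2 and 3 and at 260, 325 and 276 CPM in KO replicates 4, 5 and 6. The groups overlapped, WT replicate 3 was the highest and KO replicate 4 the lowest. The log2 fold change was −0.26 (SE 0.23, adjusted p = 0.726 in edgeR's test), and it was below 0 in all 20 alternative settings, between −0.53 and −0.11.

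Because both elongases work on one route, their ratio within a library was computed, which no scaling between libraries can alter. Per length (deposited FPKM), Elovl2 stood at 1.36, 0.42 and 0.901 times Elovl5 in WT replicates 1, 2 and 3 and at 0.271, 0.271 and 0.292 times Elovl5 in KO replicates 4, 5 and 6. All 3 KO-labelled ratios were below the WT-labelled ones and lay close together. On the log2 scale the mean ratio was −0.32 ± 0.86 (SD, n = 3) in WT and −1.85 ± 0.06 in KO libraries, a difference of −1.53. Of the 36 ratios between the 9 tested members, 4 had groups that did not overlap, with no like count made over ratios of other genes. Each of these 4 holds Elovl5, with Elovl1, Elovl2, Fads1 and Fads3 as partners. Each had an exact two-sided permutation p of 0.1, or 0.6 after Benjamini-Hochberg adjustment over the 36. A p of 0.1 is the smallest that 3 libraries against 3 allow, so no ratio could have passed and the test decides nothing here. These ratios were chosen after the levels were seen, and they share the values of Elovl5.

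The desaturases of the polyunsaturated route, Fads1 and Fads2, varied more between libraries of one label than between the labels. Fads2 (ENSMUSG00000024665), which places the first double bond, lies on chromosome 19 from 10064164 to 10101503 on the minus strand. Fads1 (ENSMUSG00000010663), which completes arachidonic and eicosapentaenoic acid, lies 81.4 kb further on, from 10182888 to 10196870 on the plus strand. Fads2 stood at 217, 94.9 and 226 CPM in WT replicates 1, 2 and 3, and at 85.3, 319 and 69.9 CPM in KO replicates 4, 5 and 6. KO replicate 5 was the highest of all libraries, and the other KO libraries were the lowest of all. Its highest KO value was 4.56 times its lowest. The log2 fold change of −0.18 (SE 0.61, adjusted p = 0.931 in edgeR's test) had no stable sign. Without KO replicate 5 it was −1.21 (SE 0.41, adjusted p = 0.216), without KO replicate 4 it was 0.11 and without KO replicate 6 it was 0.17.

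Fads1 was high in the same libraries as Fads2 within each group. It stood at 365, 319 and 586 CPM in WT replicates 1, 2 and 3, and at 287, 520 and 300 CPM in KO replicates 4, 5 and 6. WT replicate 3 and KO replicate 5 were its highest libraries, as they were for Fads2 within each label, and the groups overlapped. The log2 fold change was −0.20 (SE 0.34, adjusted p = 0.851 in edgeR's test), −0.53 (SE 0.32) without KO replicate 5 and 0.07 without WT replicate 3. Fads3, the third gene of the cluster, ends 4.49 kb from Fads2 and encodes a desaturase that acts on sphingoid bases. It stood at 5.98, 17.2 and 15.6 CPM in WT and 13.9, 11.3 and 7.42 CPM in KO libraries, with WT replicate 1 the lowest and WT replicate 2 the highest. Its log2 fold change was −0.26 (SE 0.42, adjusted p = 0.842 in edgeR's test), and with 1 library left out it lay between −0.60 (without WT replicate 1) and −0.006 (without WT replicate 2).

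**Figure D2:**
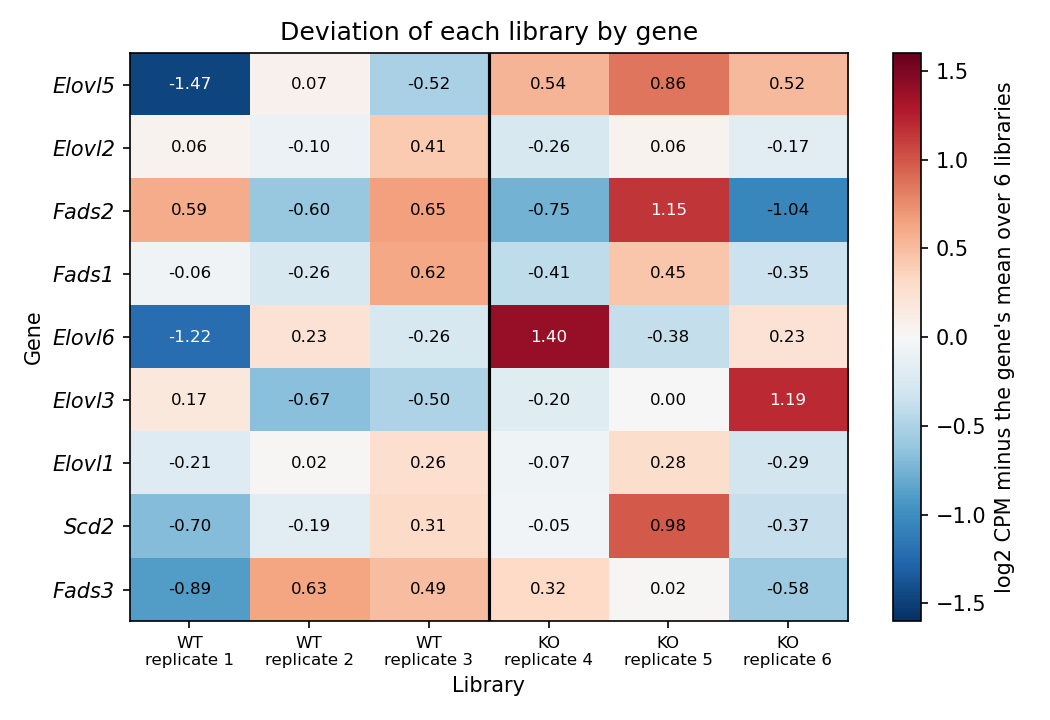
Each cell is the log2 CPM of a gene in a library minus the gene's mean over the 6 libraries, for the 9 tested genes, with WT-labelled libraries left and KO-labelled libraries right of the line. Fads2 ranges from −1.04 in KO replicate 6 to 1.15 in KO replicate 5, and Elovl5 is below its mean in WT replicates 1 and 3 and above it in all KO libraries.

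Elovl6, which lengthens palmitate to stearate and so links fatty acid synthesis to the stearoyl-CoA desaturases, had its extremes in 1 library of each group. The gene (ENSMUSG00000041220, chromosome 3, 129532355 to 129638495, plus strand) stood at 68.9, 188 and 134 CPM in WT replicates 1, 2 and 3, and at 424, 124 and 188 CPM in KO replicates 4, 5 and 6. KO replicate 4 was the highest of all and WT replicate 1 the lowest, while the other libraries of the groups overlapped. The means of 130 ± 59.8 and 245 ± 158 CPM (SD, n = 3) gave a log2 fold change of 0.91 (SE 0.52, adjusted p = 0.648 in edgeR's test). With WT replicate 1 and KO replicate 4 both left out it was −0.05, without KO replicate 4 alone 0.26, and without WT replicate 1 alone 0.60. The libraries left out were the lowest WT and the highest KO one for Elovl6, so the value falls by construction. Fasn, fatty acid synthase, which supplies palmitate, also had its highest value in KO replicate 4, at 1008 CPM, and stood at 237 CPM in WT replicate 1. Its lowest value was 138 CPM in KO replicate 6, where Elovl6 stood at 188 CPM. The antisense gene Gm35986, with 62 to 247 counts, overlaps Elovl6. No source used here gives whether counting used strand, so reads of the 2 may be mixed.

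Elovl3, which makes saturated and monounsaturated very-long-chain fatty acids and in mouse liver is known as a rhythmic, male-predominant gene, was highest in KO replicate 6. The gene (ENSMUSG00000038754, chromosome 19, 46131897 to 46135307, plus strand) stood at 95.4, 53.3 and 59.9 CPM in WT replicates 1, 2 and 3, and at 73.8, 84.6 and 193 CPM in KO replicates 4, 5 and 6. The groups overlapped through WT replicate 1. On the log2 scale the fitted change was 0.75 (SE 0.41, adjusted p = 0.642 in edgeR's test), and 0.18 without KO replicate 6. Of 16 male-biased liver genes other than Elovl3, 14 were tested, 14 were fitted lower and 9 of these had an unadjusted p under 0.05 (3.21% of all genes did so as lower), with a median log2 fold change of −1.39, so Elovl3 had the opposite sign to every tested gene of that list. Of 11 tested female-biased genes 8 were fitted higher, and 1, Cyp2b9, was called, which is 1 of the 2 calls among all genes. Among 15 tested clock genes, 12 were fitted lower, as were 6963 of all 13693 tested genes. Groups did not overlap for 1 clock gene as higher and 3 as lower (13.9% of all genes in either direction). In edgeR's test 1 clock gene in each direction, Arntl and Dbp, had an unadjusted p under 0.05. Dbp, a clock output factor, stood at 61.8, 50.9 and 87.0 CPM in WT and 31.5, 45.7 and 14.7 CPM in KO libraries, and Arntl, which encodes BMAL1, at 1.68, 2.18 and 1.75 CPM in WT and 3.27, 2.55 and 7.75 CPM in KO libraries. Neither gene's groups overlapped (log2 −1.12, SE 0.41, and 1.27, SE 0.47; adjusted p = 0.52 and 0.524 in edgeR's test), and both had their most extreme value in KO replicate 6. The labels used here give no hour of collection, and the part of the clock in the Elovl3 values was not tested.

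Elovl1, which makes very-long-chain fatty acids for sphingolipids, was steady across the libraries. The gene (ENSMUSG00000006390, chromosome 4, 118428093 to 118432953, plus strand) stood at 25.1, 29.4 and 34.7 CPM in WT and 27.5, 35.2 and 23.6 CPM in KO libraries, and the groups overlapped throughout. Its fitted change was −0.05 (SE 0.23, adjusted p = 0.951 in edgeR's test), 0.05 without WT replicate 3 and 0.07 without KO replicate 6. Cdc20, on the other strand, overlaps its end and had 5 to 62 counts, against 303 to 759 for Elovl1.

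Scd2 and Elovl7 were the scarcest members. Scd2 (ENSMUSG00000025203, chromosome 19, 44293676 to 44306864, plus strand), a stearoyl-CoA desaturase best known from brain and other tissues outside the adult liver, stood at 1.62, 2.31 and 3.26 CPM in WT and 2.54, 5.19 and 2.04 CPM in KO libraries. KO replicate 5, with 112 counts and a 95% exact Poisson interval of 4.27 to 6.24 CPM, was above all others. The log2 fold change was 0.45 (SE 0.47, adjusted p = 0.752 in edgeR's test), and −0.08 without KO replicate 5, which is also the library with the transcripts of fat cells. Its close relative Scd1 had 15541 to 145607 counts, so that Scd2 counts came to 0.0341% to 0.167% of them, and reads exchanged between these similar genes would weigh on Scd2. Elovl7, which lengthens saturated long chains, had 4, 1 and 3 counts in WT and 5, 15 and 1 counts in KO libraries. The 15 counts of KO replicate 5 give 0.695 CPM with an exact Poisson interval of 0.389 to 1.15 CPM, and the single count of KO replicate 6 gives 0.0657 CPM (0.00166 to 0.366). These intervals cover counting error only, and a difference for Elovl7 was not detectable at this depth.

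**Figure D3:**
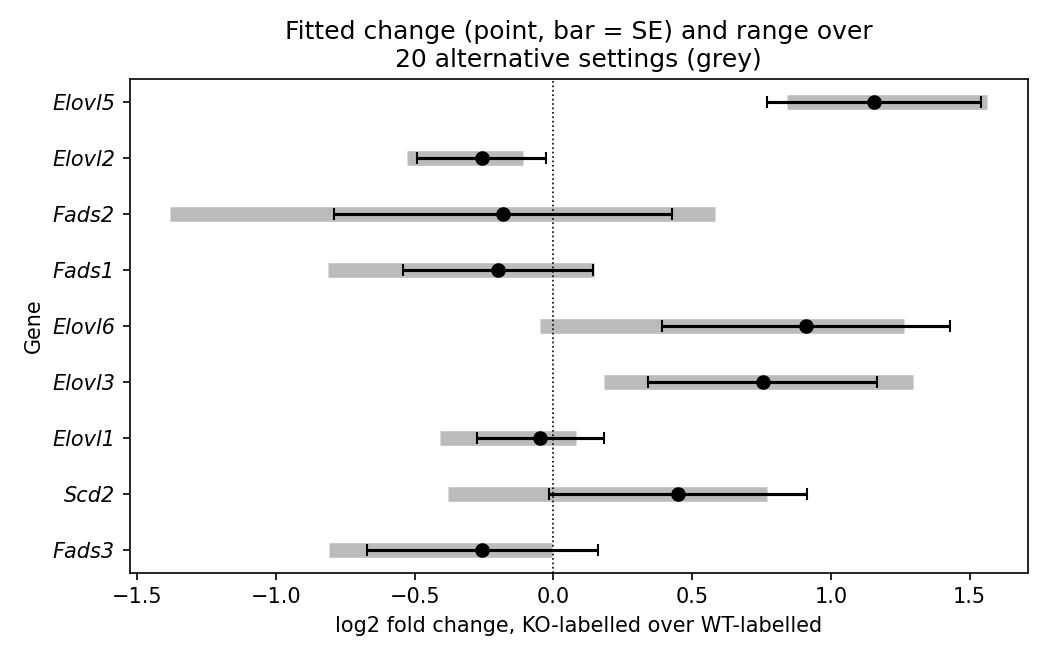
Fitted log2 fold change of each tested gene, KO-labelled over WT-labelled, as a point with its SE as the bar, and in grey the range of that value over 20 alternative settings. The grey ranges of Elovl2, Elovl3, Elovl5 and Fads3 stay on one side of 0, and those of Elovl1, Elovl6, Fads1, Fads2 and Scd2 cross it.

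Per length, the lowest-ranked genes of the family kept the same order in every library. No gap set them apart from the rest, since in WT replicate 1 Elovl1 stood at 9.51 FPKM and Elovl6 at 11.1 FPKM. In deposited FPKM, Elovl1, Fads3, Scd2 and Elovl7 ranked 7, 8, 9 and 10 in each of the 6 libraries, with medians of 10.3, 3.76, 0.439 and 0.0502 FPKM. The other 6 genes exchanged places. Elovl5 ranked between 1 and 5 (median 205 FPKM), Fads2 between 1 and 5 (105) and Fads1 between 1 and 3 (100.4). Elovl2 ranked at 3 or 4 (76.2), Elovl3 between 2 and 6 (51.8) and Elovl6 between 3 and 6 (24.8). The ranges of rank of neighbours in this order overlapped, but not every pair changed places. Elovl2 stood at 0.546 to 0.804 times Fads1 over the 6 libraries.

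As shares of the family's summed FPKM, Elovl5 made up 12.6%, 36.1% and 18.7% in WT replicates 1, 2 and 3 and 41.9%, 36.1% and 39.0% in KO replicates 4, 5 and 6. WT replicate 2 thus matched KO replicate 5. Elovl2 made up 15.2% to 17.1% in WT and 9.76% to 11.4% in KO libraries, Fads1 19.0% to 27.4% and 14.2% to 17.9%, and Elovl1 1.92% to 2.22% and 1.41% to 1.75%. These were the 3 of the 10 members whose shares did not overlap between the groups. In CPM the groups of all 3 overlapped, and no like count of shares was made over other genes. Shares add up to a fixed total, so a larger share of Elovl5 by itself lowers the others. The family's sum depended on the scale. In CPM, not corrected for length, the 10 genes summed to 1316 to 1884 in WT and 1901 to 2491 in KO libraries, without overlap. In deposited FPKM they summed to 481 to 614 and 569 to 814, with overlap. The CPM sums include Elovl5, at 212 to 617 CPM in WT and 840 to 1067 CPM in KO libraries, the only member whose groups did not overlap in CPM. They do not show that the family as a whole was higher.

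**Figure D4:**
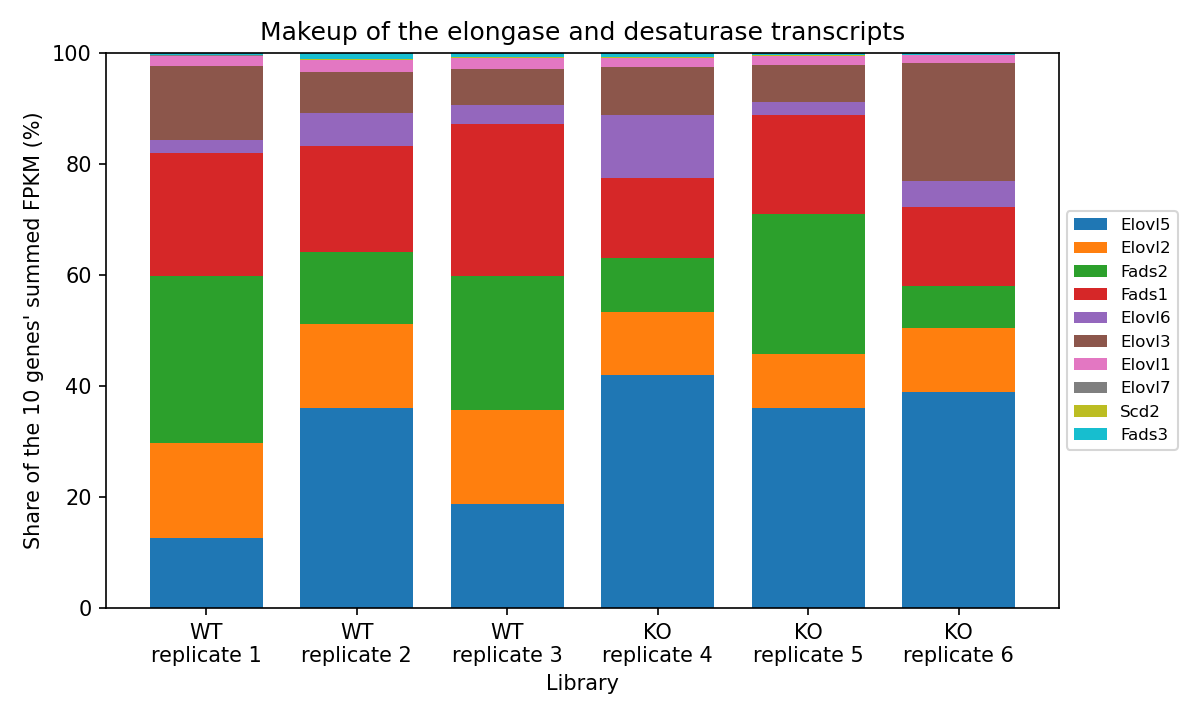
Stacked bars of each gene's share, in percent, of the summed FPKM of the 10 genes in each library. Elovl5 is the bottom block, at 12.6% in WT replicate 1, 18.7% in WT replicate 3 and between 36.1% and 41.9% in the other 4 libraries.

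The partners of these enzymes showed no called gene. Of 6 tested genes for the later steps of the elongation cycle, 3 were fitted higher and 3 lower, with 0 past either threshold. Tecr, the reductase that ends the cycle, stood at 204 ± 10.2 and 245 ± 29.1 CPM (SD, n = 3), a log2 fold change of 0.26 (SE 0.20), and Hacd3, a dehydratase of the cycle, had −0.30 (SE 0.28). Of 5 tested genes that pass electrons to the desaturases, 1 was fitted higher, Cyb5r3, the cytochrome b5 reductase, with 0.29 (SE 0.21), and Cyb5r1 had −0.49 (SE 0.31). Of the other elongases and desaturases 3 of 7 were tested, and 0 were called: Scd1 (0.62, SE 0.62), Fads6 (−0.71, SE 0.37) and Degs1, which makes ceramide (−0.44, SE 0.31).

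Genes that supply, regulate or use the acyl-CoAs also had 0 called members in edgeR's test, with some at an unadjusted p under 0.05. Among 7 tested acyl-CoA synthetases this held for 1, Acsl4, which prefers arachidonic acid, at 40.9 ± 10.1 CPM in WT and 19.1 ± 3.66 CPM in KO libraries (SD, n = 3 each). All 3 KO values of Acsl4 were below the WT ones, with a log2 fold change of −1.10 (SE 0.25, adjusted p = 0.378 in edgeR's test), and Acsl3 had −0.46 (SE 0.22). Among 7 genes of fatty acid synthesis 6 were fitted higher, and Me1, malic enzyme, had the smallest p (log2 1.04, SE 0.39). Acacb followed at 0.43 (SE 0.32). Of 12 regulators 4 were fitted higher and 8 lower. Insig2 and Insig1, which both hold SREBP precursors in the endoplasmic reticulum, had opposite signs, at 0.86 (SE 0.32) and −0.86 (SE 0.36), each without overlap between the groups. Srebf1, which encodes the main activator of Elovl6 and Fads genes, stood at 232, 338 and 382 CPM in WT and 383, 212 and 137 CPM in KO libraries.

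Among genes of peroxisomal chain shortening, the step that completes docosahexaenoic acid, Acaa1b, a thiolase, had the smallest p, at 1426 ± 197 CPM in WT and 2800 ± 465 CPM in KO libraries (log2 0.97, SE 0.26, adjusted p = 0.40 in edgeR's test). Of 7 tested phospholipid acyltransferases 5 were fitted higher, with Lpcat4 at 1.04 (SE 0.48) and Lpcat2 at 1.30 (SE 0.62), both under 4 CPM in every library. Of 4 tested ceramide synthases 2 were fitted higher and 2 lower, with Cers4 at 0.77 (SE 0.44) and Cers6 at 0.45 (SE 0.26).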

How the data were processed

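The authors deposited 2 tables of the same 54532 genes, one of raw read counts and one of FPKM, which divides by gene length. HISAT2 2.0.5 and featureCounts 1.5.0-p3 are named in the submitters' processing notes, as are the build mm10 and DESeq2 1.16.1, with no roles or settings; the use of strand was not given in the sources. For the members, the library size implied by count and FPKM was 0.846 to 1.14 times the column total, so FPKM was used for levels within a library and as an alternative, and the family's sum is given on both scales. Per the labels, libraries were made from 1 ug of Trizol RNA with a TruSeq kit.

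Groups and replicate numbers come from the sample titles. No 2 libraries agreed within sampling noise (chi-square per degree of freedom 46.9 or more). Counts were fitted with edgeR 4.0.16 in R 4.3.3 on the whole table, with TMM scaling, filterByExpr (13693 genes kept), its quasi-likelihood test and p-values adjusted by Benjamini-Hochberg (threshold 0.05); the biological coefficient of variation was 34.7%. Each SE was derived from the fitted change and its F statistic. Exact permutation tests used log2(CPM + 0.5) or log2 ratios. Alternatives used DESeq2 1.42.0, limma 3.58.1 and sva 3.50.0. The fit was tested on simulated data. Promoters come from RefSeq's GRCm38.p6. The members, the gene lists and the rule for genes named (all members and, of each pathway list, called genes or else the 2 with the smallest p) were chosen with earlier results of these data known. Fasn, Srebf1, Scd1 and the marker genes given were named outside that rule, after their values were seen. One gene that this rule takes is not reported here.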

Additional observations from a re-analysis of the deposited data

How the results depend on the processing

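Over 20 alternatives, the log2 fold changes of Elovl2, Elovl3, Elovl5 and Fads3 kept their sign, that of Fads3 coming as near 0 as −0.006. The alternatives reuse the same 6 libraries, so a kept sign is no separate evidence of a difference. With 1 surrogate variable Elovl1, Fads1 and Fads2 turned to 0.014, 0.044 and 0.38, and with the mitochondrial share (log2) as covariate Elovl1, Elovl6, Fads1 and Fads2 turned to 0.083, −0.034, 0.15 and 0.58; that share was 8.16% to 12.7% in WT and 9.08% to 28.0% in KO libraries. With WT replicate 1 and KO replicate 4 both left out, Elovl6 and Fads2 turned to −0.048 and 0.28. WT replicate 1 and KO replicate 4 are the lowest and highest libraries of Elovl6, so its value falls by construction. Leaving out 1 library, the values ranged from −0.22 to 0.074 for Elovl1, −0.53 to 0.075 for Fads1, −1.21 to 0.17 for Fads2 and −0.078 to 0.71 for Scd2. Limma-voom with sample quality weights gave Scd2 −0.38, a members' median of −0.41 and 5 called members (Elovl3 and Elovl5 higher, Elovl2, Fads1 and Fads2 lower); the cause was not tested.

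All other settings called 0 of the 9 members. Members without overlap between groups numbered 1 to 4 of 9 with 1 library left out (17.8% to 40.2% of all genes), and 3 with WT replicate 1 and KO replicate 4 both left out (29.2%); fits with a covariate have no such count. Over all genes 2 were called, against 170 with DESeq2, 1 with limma-voom, 4063 with sample quality weights, 1 with library size alone, 61 without a filter, 10 with 1 surrogate variable, 1 with the mitochondrial share, 0 to 1 with 1 library left out and 0 with both left out, where fewer libraries enter. No paired analysis was possible because each library carries a replicate number of its own. Low counts limit what Scd2 and Elovl7 can show.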
